A study of Mus musculus with 2 samples.

Results

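The endothelial cells of the embryonic mouse coronal suture numbered 40 of the 8117 kept cells in the E15.5 library (E, embryonic day), and 119 of 8767 in that of E17.5, which makes 159 of 16884. They were selected on measured values. A kept cell held 1000 or more UMIs (unique molecular identifiers, each standing for 1 captured RNA molecule) and 1000 or more genes, with no more than 7.5% of its UMIs on mitochondrial genes and no more than 3% on either the Hbb or the Hba genes. A member, in addition, carried no osteogenic or mesenchymal label in the deposited cell table, held 3 or more UMIs of Pecam1 and Cdh5 together, and had fewer than 10 UMIs of the macrophage genes C1qa, C1qb and C1qc and fewer than 10 of the mast cell genes Cpa3 and Cma1. Those genes chose the cells and are no result. The sum of Pecam1 and Cdh5 had a median of 8 UMIs (3 to 85) in E15.5 members, and of 14 (3 to 76) in E17.5 members.

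Both libraries come from wildtype C57/BL6 embryos and no treatment was given. At E15.5, 10 sutures were pooled, digested together by collagenase II with dispase, and cleared of dead cells with a kit. At E17.5, 16 sutures from 2 litters were digested by collagenase IV in 3 batches, each sorted by FACS for intact single cells and not for any vessel marker, and the deposited matrix joins them under the barcode suffixes 1, 2 and 3. No source used here ties a suffix to a batch, and with 1 library per stage the developmental day, the enzymes, the sort, the embryos and the sequencing site cannot be told apart. No p-value is given anywhere for this reason, and the intervals are exact 95% intervals that cover counting error only. No cell barcode sequence of a member recurred among members of another suffix or library, while 131 sequences of kept cells recurred over the 6 pairs.

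Endothelial cells line blood and lymphatic vessels. They are held together by cadherin and claudin junctions, grow toward vascular endothelial growth factor (VEGF), and take arterial, venous, capillary or lymphatic fates that are set in part by Notch, Sox, Nr2f2 and Prox1 activity. In bone-forming tissue they also bring oxygen and secreted signals to osteoblasts, and a coat of pericytes surrounds the smaller vessels.

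E15.5 members summed to 590423 UMIs, with a median of 10817 per cell (2241 to 73690). E17.5 members summed to 1591401, with a median of 10246 (3118 to 56134). The deepest E15.5 member alone gave 12.5% of its group's UMIs and the deepest E17.5 member 3.53%. Levels are given as CPM, counts of UMIs of a gene per 1e6 UMIs, both summed over a group of cells, and "other cells" means every kept cell of the same library that is not a member. A gene was called when 2 levels differed at least 2-fold.

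The label was checked with 30 pan-endothelial genes that the rule did not use, among them the VEGF receptors Kdr and Flt1, the claudin Cldn5 and the transcription factors Sox7, Sox18 and Erg. An E17.5 member held a UMI of a median of 23 of the 30 genes (15 to 29), and an E15.5 member of a median of 16.5 (1 to 30). Cells with an osteogenic or mesenchymal label held a median of 3 in both libraries. All 119 E17.5 members carried at least 10 of the genes, whereas 6 of the 40 E15.5 members carried fewer, so that the name is less secure at E15.5.

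Markers of other cell types were counted in the same cells. At least 0.5% of all UMIs fell on markers of mesenchyme, pericytes, macrophages, osteoclasts or chondrocytes in 13 E15.5 members and 10 E17.5 members. Of the E15.5 members, 7 held at least 50 UMIs of the chondrocyte markers Sox9, Acan, Col2a1, Matn1, Col9a1 and Mia, against none at E17.5, where the highest member held 6. At least 50 UMIs of mesenchyme markers stood in 6 and 28 members, and at least 50 of macrophage markers in 2 and 0. Summed over the members, the 12 mesenchyme markers stood at 2100 and 3358 CPM against 17481.5 and 24078 CPM in the other cells, with 11 and 12 of them above 0 UMIs. The 6 chondrocyte markers, all detected in both libraries, summed to 3221 CPM at E15.5 and 68.5 CPM at E17.5. The 12 macrophage markers, also all detected, summed to 534 and 193 CPM, and the 12 pericyte and smooth muscle markers to 203 and 153 CPM, with Myh11 and Higd1b at 0 in both libraries.

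A stricter set, named core here and defined after these values were seen, keeps members with at least 10 pan-endothelial genes and less than 0.5% of UMIs on those markers. It holds 27 of the 40 E15.5 members and 109 of the 119 E17.5 members. No E15.5 member lay between 0.4% and 0.6%, but 13 E17.5 members did. The members outside the core were deeper, with median UMI counts of 14257 and 20069.5 against 7103 and 10030 in the core. Whether they are doublets of an endothelial and another cell, or cells with free RNA, was not tested. A doublet score at or above the 94th percentile of their suffix was found in 3 of the 40 and 18 of the 119 members, among them 1 of the 13 and 5 of the 10.

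**Figure D1:**
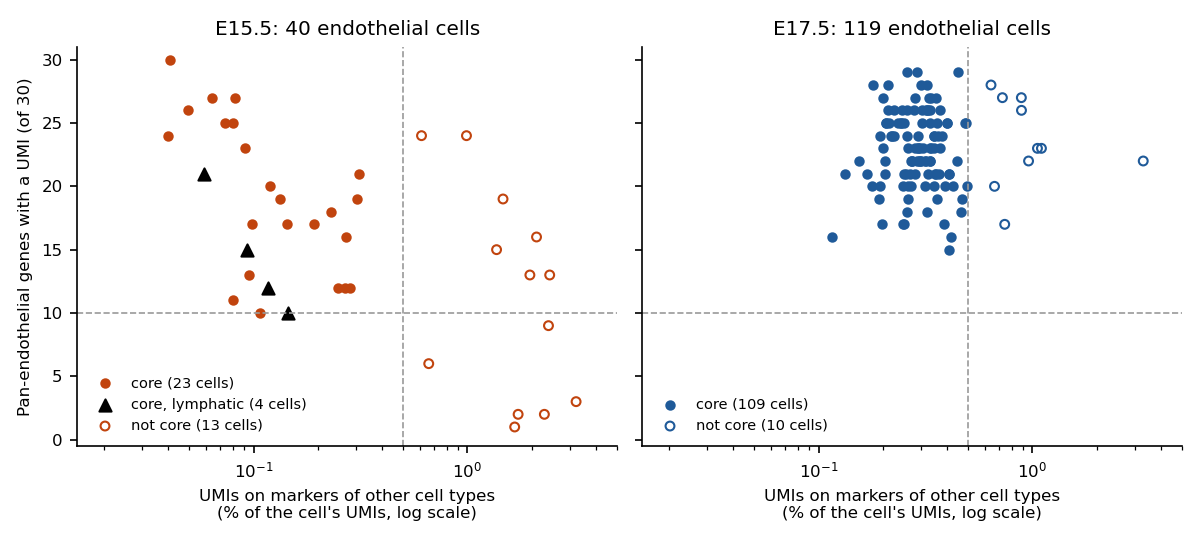
Each point is 1 endothelial cell, with the percent of its UMIs on markers of mesenchyme, pericytes, macrophages, osteoclasts and chondrocytes on a log axis and the number of the 30 pan-endothelial genes with a UMI on the vertical axis. Dashed lines mark 0.5% and 10 genes. The 119 cells at E17.5 all lie at 15 genes or more, whereas 13 of the 40 at E15.5 lie outside the core and 6 of them below 10 genes.

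An edge of the rule lies where a sum of Pecam1 and Cdh5 passes from 2 to 3 UMIs. At E15.5, the 28 unlabelled cells with a sum of 2 held a median of 3 pan-endothelial genes and the 4 with a sum of 3 a median of 4. At E17.5, the 5 cells with a sum of 2 held a median of 4 and the 1 cell with a sum of 3 held 20. Labelled cells that would otherwise have met the limits numbered 36 and 32, and both groups held a median of 3 pan-endothelial genes.

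Endothelial cells made up 0.493% (0.352 to 0.670) of the kept cells of the E15.5 library. Their share of the E17.5 library was 1.36% (1.13 to 1.62), with shares of 1.31%, 1.44% and 1.29% in suffixes 1, 2 and 3. The 3 suffixes lay within each other's counting intervals and all above the E15.5 interval, and the E17.5 share was 2.75 times that at E15.5 (1.91 to 4.05). With a sum of Pecam1 and Cdh5 of at least 2 the shares were 0.838% and 1.41%, and with each cell thinned to 3000 UMIs 0.240% and 1.11%. Core cells alone gave 0.333% at E15.5, where they were 27 of the 40 members, beside 109 of the 119 at E17.5. The shares do not count the 16 and 7 cells left out only by the mitochondrial, Hbb and Hba limits. Dissociation and sorting decide how many vessel cells survive into a library, and their part in this ratio was not tested.

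Of 14144 genes tested, 609 (4.31%) held at least 10 UMIs in the members of each library and were at least 2-fold above the other cells in both. Of 5971 genes abundant enough to show it, 504 (8.44%) were at least 2-fold lower in both. Since the same UMIs chose the cells, these counts describe the members and test nothing. The 15 genes with the largest smaller fold of the 2 libraries all stood at least 200-fold above the other cells in each, and they were Btnl9, Myct1, Gpihbp1, Dll4, Sox17, Tie1, Tmem255a, Gimap4, Cldn5, Madcam1, Robo4, Aplnr, Sox7, Flt4 and Exoc3l.

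Cldn5, which encodes the main claudin of endothelial tight junctions, stood at 630 CPM at E15.5 (568 to 697) and at 906, 797 and 909 CPM in suffixes 1, 2 and 3 at E17.5, against 1.56 and 1.47 CPM in the other cells. Its fold was 405 (329 to 500) and 580 (495 to 682). It was detected in 27 of 40 members (67.5%) and 109 of 119 (91.6%), against 0.801% and 1.87% of labelled cells, whose median depths were 8564.5 and 12301.5 UMIs. With every cell thinned to 3000 UMIs the shares were 58.3% and 74.8% against 0.232% and 0.366%, and 4 E15.5 members were left out as too shallow.

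Gpihbp1, the capillary anchor of lipoprotein lipase, stood at 207 CPM at E15.5 and at 1221, 746 and 652 CPM in the E17.5 suffixes, against 0.380 and 1.42 CPM in the other cells. Myct1 stood at 174 CPM and at 255, 192 and 180 CPM, against 0.139 and 0.251 CPM. Aplnr, the apelin receptor, stood at 239 CPM and at 901, 542 and 651 CPM, against 0.696 and 0.988 CPM. All E17.5 suffixes exceeded E15.5 for Gpihbp1 and Aplnr, and suffix 1 was the highest for all of Gpihbp1, Myct1 and Aplnr.

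Sox17, an arterial transcription factor, stood at 72.8 CPM at E15.5 and at 174, 142 and 105 CPM in the suffixes. Dll4, the Notch ligand of arteries and sprouting tip cells, stood at 54.2 CPM and at 97.7, 57.2 and 32.9 CPM. Robo4, a guidance receptor of the quiescent vessel wall, stood at 66.1 CPM and at 190, 117 and 78.4 CPM. The E15.5 level of Dll4 lay within the range of the suffixes, while those of Sox17 and Robo4 lay below it.

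**Figure D2:**
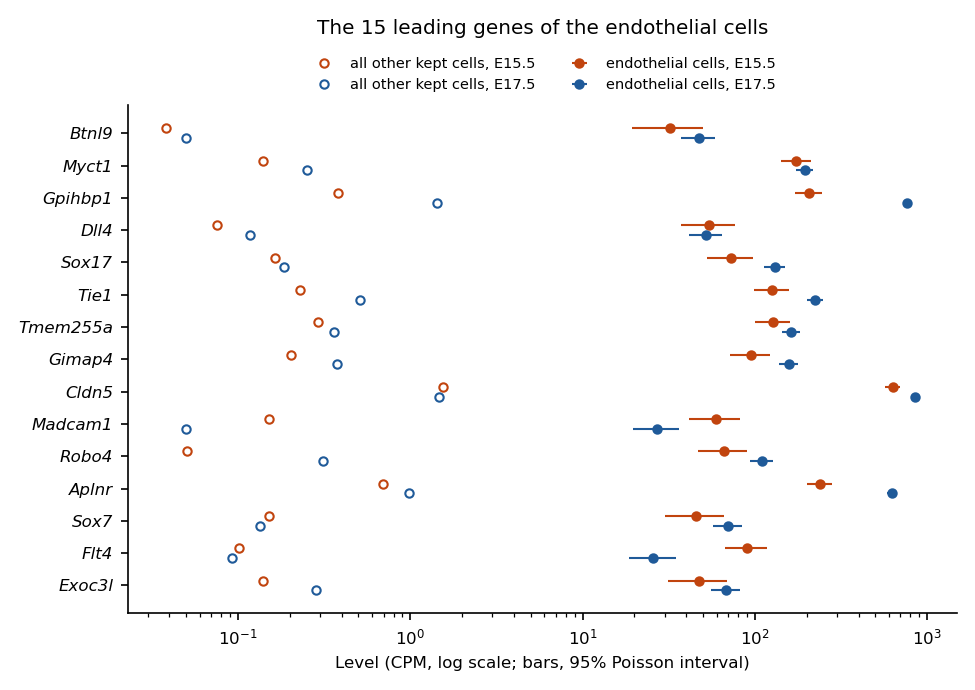
Levels of the 15 leading genes in CPM on a log axis, in endothelial cells (filled, with 95% Poisson intervals) and in all other kept cells (open), at E15.5 and E17.5. For every gene the filled points lie at least 200 times to the right of the open points of the same library.

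In GRCm38 (GENCODE), Cldn5 spans chr16:18776847-18778262 on the plus strand, Gpihbp1 chr15:75596628-75599481 on the plus strand, Aplnr chr2:85136225-85139923 on the plus strand and Dll4 chr2:119325784-119335962 on the plus strand. All are protein-coding. ETS factors such as Erg and Fli1 bind many endothelial promoters, so the 250 bases before the start of each leading gene were searched for AGGAAG, an extended ETS core, on both strands (CTTCCT). Of the 15 genes, 10 are in the RefSeq promoter table and 6 of these hold a match, beside 29.5% of all 32841 promoters of that table. Btnl9 and Gimap4 held at least 2 matches, beside 6.25% of all promoters. The promoter windows of Cldn5, Madcam1 and Tmem255a are shown because they hold no annotated exon and differ in the match. They are from RefSeq for GRCm38.p6, written 5′ to 3′ on the gene's strand and ending at the base before the start, with matches in capitals. Cldn5 is chr16:18776597-18776846 (plus strand), Madcam1 is chr10:79664309-79664558 (plus strand) and Tmem255a is chrX:38252482-38252731 (minus strand).
Cldn5: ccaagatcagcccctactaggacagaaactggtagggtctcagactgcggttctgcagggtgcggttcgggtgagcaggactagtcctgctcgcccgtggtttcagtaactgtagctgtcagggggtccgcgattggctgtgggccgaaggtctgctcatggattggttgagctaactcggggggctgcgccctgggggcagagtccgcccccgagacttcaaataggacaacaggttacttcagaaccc
Madcam1: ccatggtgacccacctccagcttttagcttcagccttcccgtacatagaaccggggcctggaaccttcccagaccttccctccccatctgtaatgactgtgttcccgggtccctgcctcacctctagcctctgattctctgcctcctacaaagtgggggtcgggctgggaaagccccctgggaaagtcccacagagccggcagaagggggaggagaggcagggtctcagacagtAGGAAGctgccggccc
Tmem255a: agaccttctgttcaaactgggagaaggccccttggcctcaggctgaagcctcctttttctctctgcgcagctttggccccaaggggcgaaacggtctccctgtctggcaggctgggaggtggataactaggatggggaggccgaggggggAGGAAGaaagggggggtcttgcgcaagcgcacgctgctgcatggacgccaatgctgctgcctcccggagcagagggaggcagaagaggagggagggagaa
The last match begins 16 bases before the start in Madcam1 and 100 bases before it in Tmem255a. The Cldn5 window holds none although its level was far above that of the other cells. A match is a run of letters and not a binding site, and its absence says nothing about any factor.

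Most pan-endothelial genes were high in the members. Of the 30, 25 (83.3%) were called higher in both libraries, with a median fold of 48.9 at E15.5 and 136 at E17.5, where the medians over all tested genes were 0.950 and 0.970. The 5 that were not called were Tek, Cd34, Erg, Tal1 and Cd300lg. Erg, Tal1 and Cd300lg were above 2-fold in both libraries but held 9, 9 and 2 UMIs in E15.5 members, under the minimum of 10. Tek and Cd34 were at 1.54-fold and 1.49-fold at E15.5.

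Some of these genes were not restricted to endothelium in the suture. Tek, the angiopoietin receptor, stood at 59.3 CPM in E15.5 members and 113 CPM in E17.5 members, beside 103 and 106 CPM in cells of the ectocranial label EC2. Cd34, a sialomucin, stood at 299.8 and 648 CPM, beside 529 and 799 CPM in EC2. Erg stood at 15.2 and 67.2 CPM in the members, and at E17.5 the osteogenic label OG1 reached 86.3 CPM. By contrast the highest label for Kdr stood at 2.02 and 3.31 CPM, against 364 and 391 CPM in the members.

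The VEGF receptors were the genes of their family that were called. Kdr, the main signalling receptor, stood at 364 CPM at E15.5 and at 288, 393 and 420 CPM in the suffixes. Flt1, the decoy receptor, stood at 193 CPM and at 239, 280 and 364 CPM, all above E15.5. Flt4, the receptor of lymphatic and sprouting cells, stood at 89.8 CPM and at 27.1, 33.8 and 15.7 CPM, all below E15.5. Without the 4 lymphatic cells described below, it stood at 21.2 CPM at E15.5, against 25.8 CPM in all E17.5 members. The family list had 3 called of 9 tested, these same receptors. Nrp1, also on the list, was not called. It stood at 115 and 438 CPM in the members, beside 364 and 391 CPM for Kdr. Of the ligands, 3 were low in the members, with Vegfa at 8.47 and 2.51 CPM, Vegfb at 22.0 and 14.5 CPM and Vegfc at 5.08 and 8.17 CPM. Pgf, another ligand of the list, held 102 UMIs in E17.5 members. It reached 234 CPM in the Gja4-marked cells described below.

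Of the 8 angiopoietin and Tie genes, Tie1 and the phosphatase gene Ptprb were called. Tie1 stood at 125 CPM and at 347, 189 and 229 CPM, and Ptprb at 40.6 CPM and at 32.6, 67.6 and 218 CPM. Suffix 3 stood apart for Ptprb. Angpt2, the antagonist ligand, was at 10.2 and 25.1 CPM in the members and at 15.8 and 23.9 CPM in the other cells.

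Notch genes showed a selective pattern, with 4 of 13 called: Dll4, Notch1, Notch4 and the feedback gene Nrarp. Notch1 stood at 89.8 CPM at E15.5 and at 54.3, 71.5 and 79.9 CPM in the suffixes, against 10.6 and 6.62 CPM in the other cells. Nrarp stood at 66.1 CPM and at 261, 213 and 129 CPM, all above E15.5. Notch2 was lower than in the other cells, with 20.3 and 7.54 CPM against 48.8 and 31.3 CPM, and Hey2 had 0 UMIs in either library.

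Of the endothelial transcription factor list, 18 of 29 (62.1%) were called, with median folds of 7.51 and 15.1. They included the ETS factors Fli1, Ets1, Ets2 and Elk3, the Sox factors Sox7, Sox17 and Sox18, and Lmo2, Lyl1, Hhex, Mecom, Bcl6b and Tcf15. Sox18 stood at 35.6 CPM at E15.5 and at 358, 189 and 224 CPM in the suffixes. Mecom, a factor of arterial and stem cells, stood at 50.8 CPM and at 43.4, 68.9 and 118 CPM, with the E15.5 level inside the range of the suffixes. Etv2, the early specifier of the lineage, had 1 and 0 UMIs. Klf2 and Klf4, which respond to blood flow, were not called: Klf2 stood at 412 and 664 CPM beside 499 and 347 CPM in the other cells.

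The vessel wall was represented by junction and basement membrane genes. Of 15 junction genes 8 were called, among them Cldn5, Esam, F11r and Jam2. F11r, which encodes a junctional adhesion molecule, stood at 55.9 CPM at E15.5 and at 282, 308 and 303 CPM in the suffixes. Of 13 basement membrane genes 8 were called, and Col4a1, a chain of collagen IV, stood at 725 CPM and at 1085, 1255 and 941 CPM, against 68.3 and 94.4 CPM in the other cells. Sparcl1 stood at 481 CPM and at 1655, 1338 and 1260.3 CPM, against 24.7 and 6.80 CPM.

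The flow and vasoactive list had 13 of 20 called. Cav1, the scaffold of caveolae, stood at 608 CPM and at 1824, 1171 and 1343 CPM, against 40.5 and 16.4 CPM in the other cells. S1pr1, the receptor for sphingosine-1-phosphate, stood at 84.7 CPM and at 119, 130 and 149 CPM. Nos3, endothelial nitric oxide synthase, stood at 33.9 CPM and at 32.6, 29.9 and 69.0 CPM, so that E15.5 lay within the range of the suffixes.

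Of the BMP and TGF-β list, 4 of 20 genes were called: the receptors Eng and Acvrl1, the signal transducer Smad1 and the ligand Tgfb1. Eng, the co-receptor endoglin, stood at 137 CPM and at 402, 415 and 392 CPM, against 25.4 and 29.5 CPM. Acvrl1, the receptor ALK1, stood at 44.0 CPM and at 185, 127 and 163 CPM, against 21.4 and 15.7 CPM. Of the Wnt and Norrin list, Fzd4 and Tspan12 were called out of 14 tested, and Lef1 and Axin2, read-outs of the pathway, held 1 and 5 UMIs in E15.5 members and 3 UMIs each in E17.5 members.

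Genes of the brain barrier were mostly near the level of other cells or absent. Of 15 tested, 1 (6.67%) was called, a share near the 4.31% of all genes. This was Abcg2, an efflux transporter, at 144 CPM and at 190, 222 and 204 CPM against 31.1 and 20.4 CPM. Mfsd2a, a lipid transporter of brain capillaries, had 2 UMIs at E15.5 and 0 at E17.5, where 3 UMIs would be 1.89 CPM, and Slc22a8 and Slco1a4 had 0 in both libraries. Slc2a1, the glucose transporter, stood at 40.6 and 75.4 CPM against 22.3 and 13.3 CPM. Plvap, the diaphragm protein of fenestrated and peripheral capillaries that brain capillaries lack, stood at 285 CPM and at 847, 833 and 792 CPM, against 2.22 and 2.99 CPM.

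Peripheral capillary genes were called in 6 of 11 cases. Fabp4, a fatty acid carrier, stood at 327 CPM at E15.5 and at 4868, 2460 and 2224 CPM in the suffixes, against 6.62 and 5.92 CPM in the other cells. Cd36, a fatty acid receptor, stood at 55.9 CPM and at 347, 142 and 155 CPM. Rgcc stood at 286 CPM and at 668, 637 and 470 CPM. Every suffix lay above E15.5 for Fabp4, Cd36 and Rgcc. Car4, a carbonic anhydrase of lung and heart capillaries, had 0 UMIs in both libraries.

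Arterial genes were called in 6 of 17 cases, venous genes in 3 of 11 and lymphatic genes in 3 of 10, beside 4.31% of all genes. The arterial connexin Gja4 stood at 37.3 CPM at E15.5 and at 168, 125 and 157 CPM, and the large-artery connexin Gja5 at 1.69 CPM and at 21.7, 14.3 and 1.57 CPM. The venous regulator Nr2f2 stood at 93.2 CPM and at 38.0, 76.7 and 132 CPM. Vwf, which encodes the clotting factor stored by endothelium, stood at 1.69 CPM (1 UMI) and at 5.43, 107 and 591 CPM. Selp, the adhesion molecule of venules, had 0 UMIs at E15.5 and stood at 5.43, 5.20 and 29.8 CPM. Suffixes 1 and 3 were at opposite ends for both Gja5 and Vwf.

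**Figure D3:**
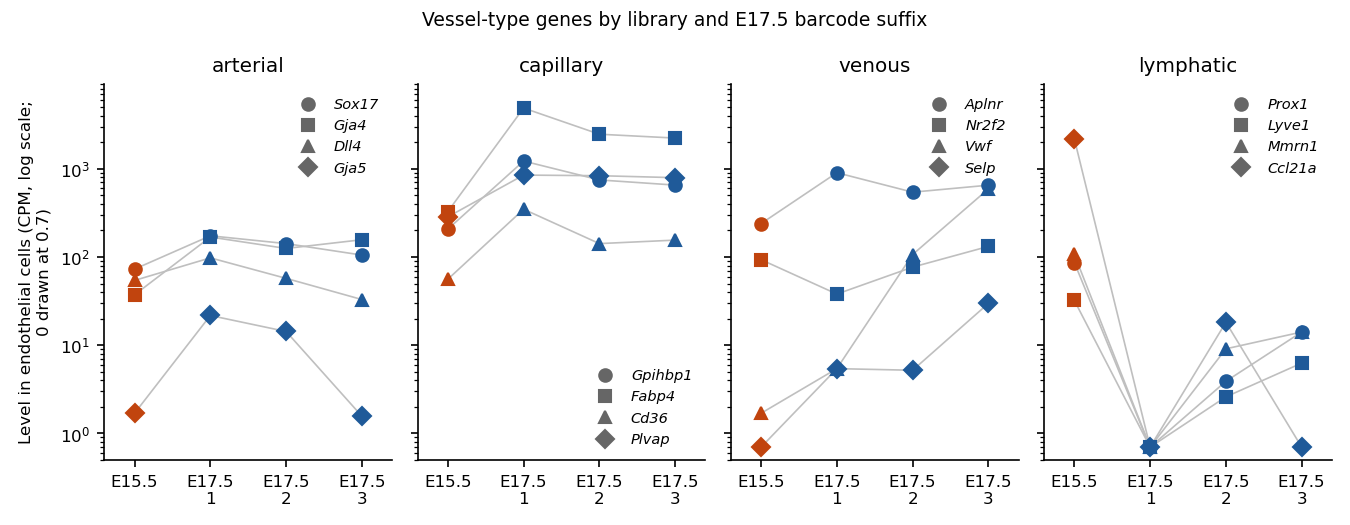
Levels of 4 arterial, 4 capillary, 4 venous and 4 lymphatic genes in endothelial cells, in CPM on a log axis, at E15.5 and in the E17.5 barcode suffixes 1, 2 and 3. The capillary genes lie higher in each suffix than at E15.5, Vwf runs from 5.43 to 591 CPM over the suffixes, and the lymphatic genes lie highest at E15.5.

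Cells carrying many lymphatic genes were seen at E15.5. With at least 6 of 12 lymphatic genes, 4 of 40 E15.5 members qualified (10.0%, 2.79 to 23.7), and they held 8, 8, 8 and 11 of the genes, whereas the next member held 5. At E17.5 0 of 119 qualified, which allows a share of up to 2.52% by the limit of 3 cells, and the highest member held 5. The exact interval at E17.5 reaches 3.05% and so overlaps that at E15.5. The set was formed after the values were seen and by the genes themselves, so their levels are a description. All 4 cells are core, and 2 of them had a high doublet score.

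The chemokine Ccl21a, which draws dendritic cells into lymphatic vessels, held 69, 108, 444 and 664 UMIs in these 4 cells and none in the other 36 members. Prox1, the regulator of lymphatic identity, held 3, 3, 9 and 27 UMIs, and its level was 353 CPM against 19.1 CPM in the other E15.5 members. Flt4 stood at 361 against 21.2 CPM and Mmrn1 at 429 against 25.5 CPM. Lyve1 held 5, 4, 0 and 10 UMIs, with none in the other members. Genes outside the list differed too. Flt1 and Plvap had 0 UMIs in the 4 cells, against 242 and 356 CPM in the other members, so that Flt1 was at least 9.59-fold and Plvap at least 14.1-fold higher in the others against 3 UMIs. Nrp2, the co-receptor of lymphatic growth, stood at 891 against 140.0 CPM, and Cldn5 at 950.0 against 549 CPM. The lymphatic cell of 73690 UMIs was the deepest of all members and gave 664 of the 1285 Ccl21a UMIs.

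The E17.5 members were divided by the arterial gene Gja4 and the vein-enriched gene Vwf. Members with at least 2 UMIs of Gja4 numbered 18 and members with at least 2 UMIs of Vwf numbered 31, and no cell met both, while some cells with Vwf UMIs held 1 UMI of Gja4. The Gja4-marked cells were spread over the suffixes as 2, 10 and 6, the Vwf-marked cells as 0, 13 and 18, and the 70 unmarked cells as 18, 29 and 23. Their median depths were 12484, 12921 and 9430 UMIs. At E15.5 2 members were Gja4-marked and none Vwf-marked. These sets were formed after the values were seen, and Gja4 and Vwf are not results.

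Of 4435 genes with enough UMIs, 402 (9.06%) were at least 2-fold higher in the Gja4-marked cells and 373 (8.41%) in the Vwf-marked cells. Of the arterial list 5 of 8 tested genes were higher in the Gja4-marked cells and 1 in the Vwf-marked cells, and of the venous list 7 of 7 were higher in the Vwf-marked cells. Gja4 and Vwf are left out of these list counts. Of the tip cell and sprouting list 9 of 12 were higher in the Gja4-marked cells, and of the Notch list 4 of 5. Among these 9 tip cell genes, Apln and Kcne3 were highest in the unmarked cells. They stood there at 145 and 165 CPM, against 80.7 and 23.1 CPM in the Gja4-marked cells. Kcne3 held 6 UMIs in the Gja4-marked and 2 in the Vwf-marked cells. Ptn, on the same list, stood at 497 CPM in the Vwf-marked and 161 CPM in the Gja4-marked cells.

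Sox17 stood at 340.4 and 231 CPM in the Gja4-marked cells of suffixes 2 and 3, and at 44.4 and 23.1 CPM in the Vwf-marked cells, a ratio of 10.0 (5.66 to 19.1). Dll4 stood at 151 and 60.7 CPM against 11.1 and 11.5 CPM, a ratio of 10.5 (4.05 to 34.6). Igfbp3, an insulin-like growth factor binding protein, stood at 2291 and 2196 CPM against 133 and 76.9 CPM, a ratio of 23.4 (17.2 to 32.6). Levels in both suffixes lay apart for each of these genes.

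Other genes, several of them of sprouting vessels, followed the same side. Esm1, a secreted proteoglycan of tip cells, stood at 227 CPM in the Gja4-marked cells and had 0 UMIs in the Vwf-marked cells, which makes it at least 33.3-fold higher against 3 UMIs. The growth factor gene Pgf stood at 234 against 4.54 CPM (2 UMIs), a ratio of 51.6 as counted (13.7 to 436), and the netrin receptor gene Unc5b at 188 against 4.54 CPM (2 UMIs), a ratio of 41.5 as counted (10.9 to 352). Ptp4a3, a VEGF-induced phosphatase, stood at 1042 against 27.3 CPM, a ratio of 38.2 (21.5 to 74.9). Cxcl12, a chemokine of arteries, stood at 146 against 13.6 CPM. The capillary gene Gpihbp1 stood at 888 against 152 CPM, but at 1029 CPM in the unmarked cells.

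The Vwf-marked cells carried the other set. Procr, the receptor of protein C, stood at 488 and 750.0 CPM in suffixes 2 and 3 against 26.2 and 48.5 CPM in the Gja4-marked cells, a ratio of 16.7 (8.96 to 35.2). Nr2f2 stood at 218 CPM against 15.4 CPM over all suffixes, a ratio of 14.2 (5.36 to 53.1). Clec14a stood at 1231 and 1588 CPM against 196 and 206 CPM, a ratio of 7.66 (5.72 to 10.5). Bmp4 stood at 145 CPM against 3.84 CPM (1 UMI), a ratio of 37.8 as counted (6.55 to 1517), and Lrg1 at 179 against 15.4 CPM. Tek stood at 184 against 23.1 CPM, and Icam1, an adhesion molecule for leukocytes, at 154 against 7.69 CPM (2 UMIs).

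In the 70 unmarked cells Aplnr stood at 807 CPM, against 575 CPM in the Vwf-marked and 99.9 CPM in the Gja4-marked cells, and Kcne3 at 165 CPM against 4.54 and 23.1 CPM. Cd36 stood at 240.2 CPM against 114 and 30.8 CPM. Fabp4 stood at 3319 CPM in the unmarked and 3202 CPM in the Gja4-marked cells, against 949 CPM in the Vwf-marked cells. The order of the first 2 sets was the other way round in suffix 2, with 2683 CPM in the unmarked and 2900 CPM in the Gja4-marked cells, and in suffix 3, with 3168 and 4173 CPM. Cldn5 did not reach a 2-fold difference, with 739.7, 899 and 1172 CPM in the unmarked, Vwf-marked and Gja4-marked cells.

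**Figure D4:**
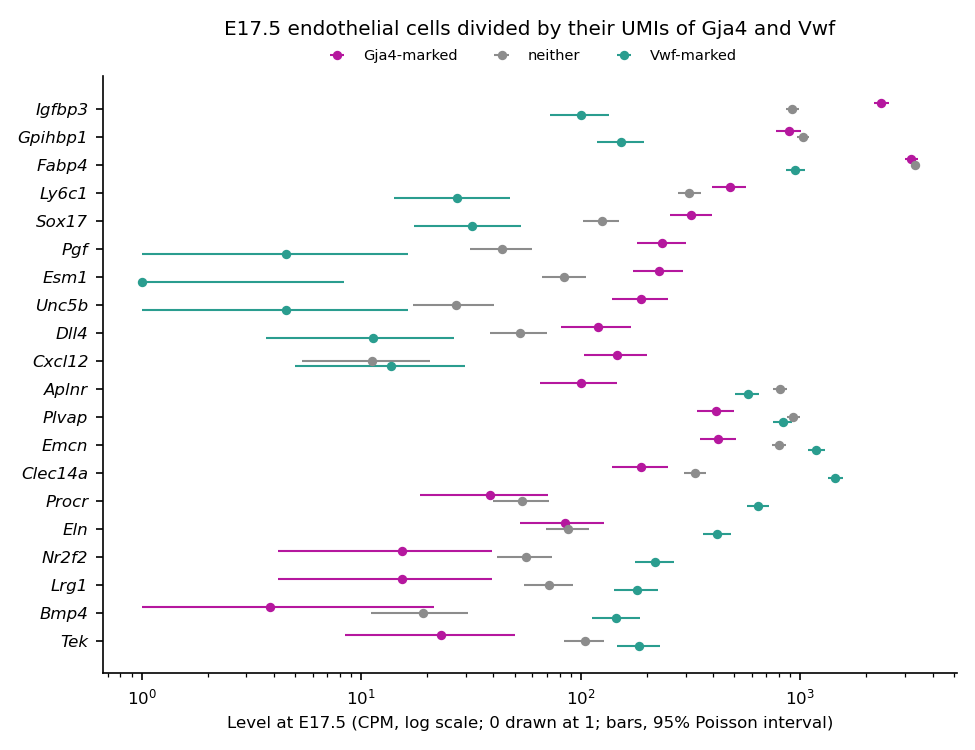
Levels at E17.5 of 20 genes in CPM on a log axis with 95% Poisson intervals, in the 18 Gja4-marked, 31 Vwf-marked and 70 other endothelial cells. The genes from Igfbp3 to Cxcl12 lie higher in the Gja4-marked than in the Vwf-marked cells, and those from Aplnr to Tek higher in the Vwf-marked cells.

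Of 5336 genes with at least 50 UMIs over both libraries' members, 499 (9.35%) were at least 2-fold higher at E17.5 and 238 (4.46%) at least 2-fold lower. Of the 499, 123 were at least 2-fold higher in the other cells as well, and of the 238, 103 were lower there as well. Relative to the other cells, 437 genes (8.19%) were higher and 179 (3.35%) lower. Of the 499 genes, 469, 498 and 499 lay above E15.5 in suffixes 1, 2 and 3.

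The E15.5 members included 4 lymphatic cells and 13 cells outside the core, and several stage ratios differed when these were left out. Of 29 pan-endothelial genes 13 were at least 2-fold higher at E17.5, with a median ratio of 1.86, but in core members without the lymphatic cells 5 of 29 were, with a median ratio of 1.26. In the same core cells 589 of 5334 genes (11%) were, with a median ratio of 1.05. The 10 genes with the lowest ratio were Ccl21a, Matn1, Col2a1, Sox9, Col9a3, Acan, Hapln1, Mia, Col9a1 and Lgals3, of which Ccl21a marks lymphatic cells and most of the rest are cartilage genes. Matn1 stood at 564 CPM at E15.5 and at 5.43, 7.80 and 14.1 CPM in the suffixes, and its ratio of 0.0178 became 0.354 in core members without lymphatic cells. Matn1 was lower at E17.5 in the other cells too, with a ratio of 0.0969. Ccl21a stood at 2176 CPM at E15.5 and at 0, 18.2 and 0 CPM in the suffixes, a ratio of 0.00404. All its E15.5 UMIs were in the 4 lymphatic cells and its 14 UMIs at E17.5 were in 1 cell, so that without those 4 cells E17.5 was at least 1.38-fold higher against 3 UMIs, which rests on that cell.

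Fabp4 was 8.09-fold higher at E17.5 (7.0 to 9.39), against a ratio of 0.894 in the other cells, and 4.70-fold higher in core members without lymphatic cells. Igfbp7, a vessel-enriched binding protein, stood at 102 CPM and at 1259, 816 and 961 CPM, a ratio of 9.11 (7.04 to 12), or 6.42 in the core without lymphatic cells and 2.75 in the other cells. Vwf was 171-fold higher as counted (30.5 to 6755) against 1 UMI at E15.5, but most of its 460 UMIs were in suffix 3 and suffix 1 had 5.43 CPM. Procr was 4.87-fold higher (3.26 to 7.56), at 54.3, 146 and 343 CPM in the suffixes against 44.0 CPM, and 4.05-fold in the core without lymphatic cells. Procr and Vwf were thus uneven among the suffixes, with suffix 1 the closest to E15.5.

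Clec14a was 6.05-fold higher (4.66 to 7.99), with 293, 515 and 829 CPM against 102 CPM. Emcn, the sialomucin endomucin of capillaries and veins, was 3.00-fold higher (2.55 to 3.55), with 554, 803 and 977 CPM against 281 CPM, and 1.71-fold in the core without lymphatic cells. Lrg1 stood at 6.77 CPM and at 109, 66.3 and 119 CPM, and Edn1, which encodes endothelin, at 3.39 CPM (2 UMIs) and at 27.1, 23.4 and 48.6 CPM. Isg15, an interferon-induced gene, stood at 3.39 CPM (2 UMIs) and at 81.4, 116 and 95.6 CPM, a ratio of 30.6 as counted (8.34 to 255), where the other cells had a ratio of 0.469.

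Several of the largest ratios were shared by the whole library. Srp54b had 0 UMIs in E15.5 members and stood at 187 CPM at E17.5, and in the other cells it stood at 0.0633 and 222 CPM. Igf2 stood at 33.9 and 1019 CPM in the members and at 42.6 and 1747 CPM in the other cells. Sept2, Tonsl, AY036118 and Cebpb also differed by more than 10-fold in the other cells. Esm1 stood at 5.08 CPM (3 UMIs) and 84.2 CPM in E15.5 and E17.5 members, a ratio of 16.6 (5.55 to 81.4), where the other cells had 31.3. Gpihbp1 was 3.69-fold higher in the members (3.07 to 4.49) and 3.75-fold higher in the other cells, where its level was far lower. A difference between the libraries in all cells, whether of stage, preparation or counting, cannot be told apart here from one in the vessels.

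**Figure D5:**
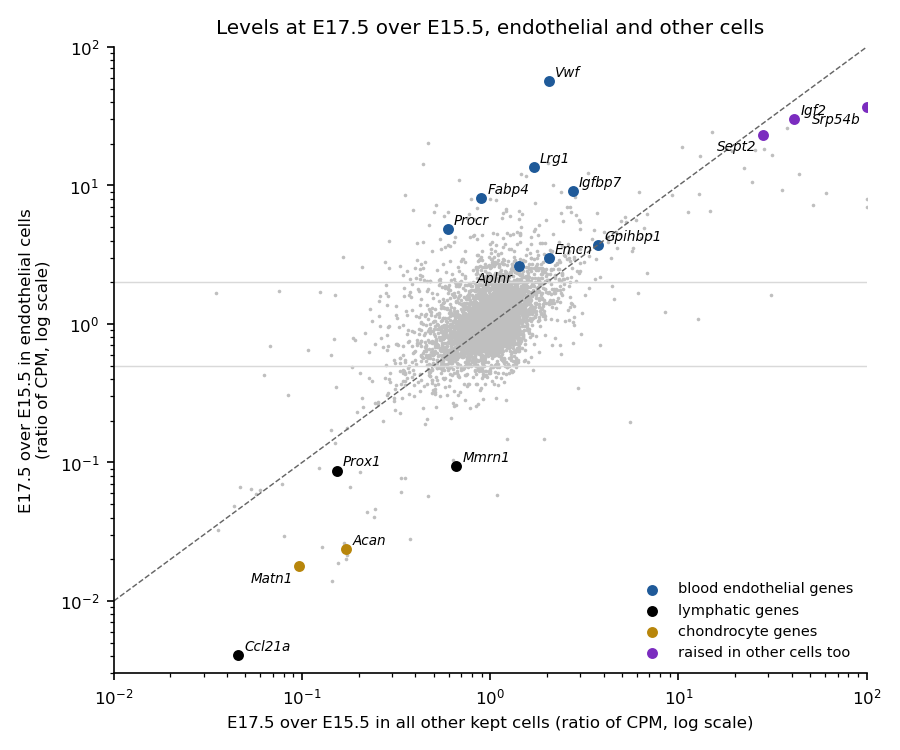
Ratio of levels at E17.5 over E15.5 in all other kept cells and in endothelial cells, both on log axes, for 5336 genes (grey) with named genes coloured; a level under 3 UMIs is set to 3 UMIs. Horizontal lines mark 2-fold. Fabp4, Lrg1, Procr and Vwf lie well above the diagonal of equal ratios, Igf2 and Sept2 near it, and Srp54b at the right edge, beyond the axis limit of 100.

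Cell cycle genes were more frequent in E15.5 members. Thinned to 3000 UMIs, 15 of 36 members (41.7%, 25.5 to 59.2) held at least 5 of 18 proliferation genes at E15.5, and 25 of 119 (21.0%, 14.1 to 29.4) at E17.5, with 15%, 23.1% and 21.3% in the suffixes. Labelled cells stood at 15.2% and 20.9% by the same measure, and pericytes-like cells, other unlabelled cells with at least 5 UMIs of Rgs5, Kcnj8, Abcc9 and Cspg4 together, at 51.1% and 45.5%. The intervals of the 2 stages overlap. Unthinned, with at least 8 of the genes, the shares were 42.5% and 31.1%. Mki67 stood at 74.5 CPM at E15.5 and at 10.9, 29.9 and 25.1 CPM, and Top2a at 169 CPM and at 114, 79.3 and 70.5 CPM. None of the 18 genes was called higher or lower against the other cells in both libraries, beside 4.31% and 8.44% of all genes.

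Genes induced by tissue dissociation were also counted. Of the 18, none was called higher in both libraries, beside 4.31% of all genes. Their summed level was 6507 CPM at E15.5 and 4639 CPM at E17.5, against 7267 and 3930 CPM in the other cells. Fosb stood at 329 CPM and at 10.9, 9.10 and 40.8 CPM in the members, and at 369.6 and 66.5 CPM in the other cells.

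Signals and their partners divided between the vessels and their neighbours. Pdgfb, the ligand that draws pericytes, stood at 25.4 and 30.2 CPM in the members and at no more than 2.03 CPM in any label. In unlabelled cells with at least 10 UMIs of the C1q genes Pdgfb stood at 8.45 and 4.63 CPM. Its receptor gene Pdgfrb stood at 102 and 232 CPM in pericytes-like cells and at 10.2 and 6.91 CPM in the members. Pdgfrb was also present in the labels, with the highest at 66.2 CPM at E15.5 (OG3) and 68.9 CPM at E17.5 (OG1). Notch3, a pericyte receptor, stood at 79.8 and 199 CPM in pericytes-like cells and at 0 and 3.77 CPM in the members. Vegfa was low throughout, with the highest label at 30.5 CPM at E15.5 (MG1) and 27.4 CPM at E17.5 (MG3). At E15.5 the ectocranial label EC3 and the osteogenic label OG1 were close to MG1, at 29.4 and 29.1 CPM. The meningeal label MG4 stood at 4.53 CPM at that stage, and the E15.5 levels of MG1 and MG4 each rest on few UMIs. The endothelial receptors Kdr and Aplnr, by contrast, were near 0 in each label.

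The chemokine Cxcl12 was highest in the meningeal labels MG1 at E15.5 (386 CPM) and MG4 at E17.5 (757 CPM), against 15.2 and 33.9 CPM in the members. Its receptor Cxcr4 stood at 6.77 and 26.4 CPM in the members and at no more than 5.30 CPM in the labels, but at 12.1 and 7.61 CPM in unlabelled cells with at least 10 UMIs of the C1q genes. Angpt1, the activating ligand of Tek, was highest in MG4, with 39.3 and 54.8 CPM, and held 4 and 2 UMIs in the members. Apelin and its receptor lay together in the vessels, with Apln at 35.6 and 101 CPM and Aplnr at 239 and 627 CPM. Kitl, the ligand of Kit, stood at 103 and 71.6 CPM in the members and at 171 and 38.6 CPM in the label EC3.

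A list of 12 coronal synostosis genes was compared, which is not the study's full set. It leaves out Jag1 and Ctsk, which the study names and which were not called higher either. None of the 12 was called higher in the vessels, beside 4.31% of all genes, and 6 of 11 were called lower, beside 8.44%. Most of the other cells carry an osteogenic or mesenchymal label. The paper reports many coronal synostosis genes as enriched in osteogenic clusters. Twist1 held 1 UMI at E15.5 (1.69 CPM) and stood at 0, 15.6 and 14.1 CPM in the suffixes, against 27.4 and 86.1 CPM in the other cells. Zeb2 stood at 15.2 CPM and at 10.9, 40.3 and 51.7 CPM, against 119 and 126 CPM. Tcf12 stood at 107 CPM and at 119, 70.2 and 79.9 CPM, near the 89.5 and 72.9 CPM of the other cells.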

How the data were processed

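Single cells of E15.5 and E17.5 coronal sutures were captured with 10x 3′ chemistry, and per the labels and headers the authors made the deposited counts of UMIs per gene and cell with Cell Ranger (mm10). The authors also deposited a table with a cluster label for osteogenic and mesenchymal cells, whose labels were used here as given. The members and the gene lists were chosen with earlier results of these data known, and the core, lymphatic and Gja4- or Vwf-marked sets after the values were seen.

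UMIs were summed per group of cells and divided by the group's total, with exact Poisson intervals, Clopper-Pearson intervals for shares and exact conditional intervals for ratios. With 1 library per stage no test across samples was possible. Tested genes held at least 20 UMIs over all cells, and genes compared between stages at least 50 UMIs in members. A level under 3 UMIs was set to 3 UMIs in a ratio, except where the ratio is given as counted. The text names the 15 genes with the largest smaller fold, the 10 stage ratios farthest from 1 in each direction, and genes of the fixed lists; 1 gene that this rule names is not reported here. Doublets were scored with Scrublet in scanpy 1.11.5 at an expected rate of 0.06 and kept. Cells were thinned to 3000 UMIs where shares are compared. The steps were tested on simulated data. Python 3.11.15, numpy 2.4.6, pandas 2.3.3 and scipy 1.17.1 were used. Alternatives covered the rule's limits, the fold, filters on low counts, thinning, each barcode suffix alone, labelled cells, and core and lymphatic cells.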

Additional observations from a re-analysis of the deposited data

How the results depend on the processing

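No paired analysis was possible because each stage is 1 library. The main counts were 609 genes higher and 504 lower in endothelial cells, and 499 higher and 238 lower at E17.5, with shares of 0.493% and 1.36%. A sum of Pecam1 and Cdh5 of at least 2 gave 317 lower genes, 395 lower at E17.5 and an E15.5 share of 0.838%. Thinning to 3000 UMIs gave 185 higher, 172 lower, 172 higher at E17.5 and 47 lower at E17.5, with shares of 0.240% and 1.11%. Suffix 1 alone gave 373 higher, 277 lower and 179 higher at E17.5, and suffixes 2 and 3 alone gave 273 and 302 higher at E17.5. At 1.5-fold the 4 counts were 1068, 794, 1125 and 630, and at 4-fold 281, 220, 111 and 48. Without a minimum of UMIs 1162 genes were higher, and a stage minimum of 20 UMIs gave 973 and 596. Core members without lymphatic members gave 158 genes lower at E17.5, and 86 of the main 238 (36.1%) were among them. Of the main 499 genes higher at E17.5, 263 (52.7%) were called again in that set. Allowing labelled cells gave shares of 0.936% and 1.72%, and core members alone an E15.5 share of 0.333%. Leaving out the lymphatic members, an alternative chosen after seeing the data as were the core sets, turned the stage ratio of Ccl21a from 0.00404 to 1.38, a lower bound against 3 UMIs, since E15.5 then held 0 UMIs and the 14 UMIs at E17.5 were in 1 cell. The counts fall with fewer UMIs by construction, and other causes were not tested. Low counts limit genes near 1 UMI at E15.5, such as Vwf.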
